A study of Mus musculus with 22 samples.

Results

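The CCN genes are a small family of secreted signalling proteins. The 5 members followed here are Cyr61, Ctgf, Nov, Wisp1 and Wisp2, picked by symbol among the 16271 genes present in all 4 RNA libraries of the series, and named Ccn1 to Ccn5 in that order in the current RefSeq table. The family was put forward because Wisp2 was among the genes that differed between genotypes in an earlier look at these libraries, so its KO minus WT values are given as a description. The cells were primary mouse embryonic fibroblasts (MEFs), taken from the body of C57BL/6 embryos at stage E13.5 and used at passage 3 to 4. One genotype was wild type (Lsh+/+, WT). The other was Lsh KO (Lsh-/-), without the SNF2 chromatin remodeller that the gene Hells encodes and that is needed for normal DNA methylation. Each genotype had 2 RNA libraries, called WT1, WT2, KO1 and KO2 after the replicate number in the labels, and the labels do not say how many embryos went into a culture or what the number stands for. The other 18 samples of the series are not analysed here.

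CCN proteins sit in the extracellular matrix, where they bind integrins, heparan sulfate proteoglycans and growth factors and so change adhesion, migration and matrix production rather than building the matrix itself. Most are made of 4 modules: an IGFBP-like domain, a von Willebrand factor type C domain, a thrombospondin type 1 domain and a C-terminal cystine knot. Wisp2 lacks the last of these. In fibroblasts Cyr61 and Ctgf are fast-responding targets of serum, of TGF-beta and of the Hippo pathway effectors YAP and TAZ, which bind DNA through TEAD factors. Nov is often produced when Cyr61 and Ctgf are low and is linked to growth arrest. Wisp1 was found as a gene induced by Wnt1. Wisp2 is made by mesenchymal and fat precursor cells, where it restrains adipocyte differentiation.

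Levels are given as RPKM, read numbers scaled to exon length and library depth by the authors before deposit, so they are per length. Levels of different genes are compared only as listed, since Gapdh, a gene that every cell uses, is listed at very low values. It is at 0.160 (WT1), 0.298 (KO1) and 0.179 RPKM (KO2) and at 0 in WT2, and the cause was not tested. The libraries held 122.5 to 176.6 M mapped reads. At least 991 reads per kilobase of exon lay behind every value of the 5 genes, which leaves a counting error of 3.18% or less for each kilobase. Hells was at 0.865 (WT1), 0.430 (KO1), 1.06 (WT2) and 0.550 RPKM (KO2), so the direction followed the labels, although its change missed the threshold (log2 change -0.56, limma adjusted p 1.00, or 0.200 once the number was a second term). The libraries resembled each other more by number than by genotype (Pearson's r over genes, a description since genes are no replicates, of 0.980 and 0.983 within numbers and of 0.893 and 0.897 within genotypes), and the files of the 2 numbers list different sets of transcripts. A culture, a run and a processing difference cannot be told apart here. In bulk RNA, fewer cells of a type and less RNA per cell cannot be told apart either.

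Cyr61, an integrin ligand and immediate early gene (chromosome 3, 145309935 to 145312949, minus strand, build mm9), was at 566 RPKM in WT1, 439.7 in KO1, 356 in WT2 and 364 in KO2. It was among the 32 highest genes of every library, and its level was the steadiest in rank of the family. Its promoter is the only one of the 5 that the RefSeq promoter table (GRCm38.p6) holds, and it is shown because it carries the TEAD motif through which YAP and TAZ targets are read. The window runs from 250 bases before to 50 bases after the start, chr3:145649936-145650235 on the minus strand, and the capitals mark, in order, the TEAD motif CATTCC, the leading part of the cAMP response element (TGACGT, which lies on the other strand and is printed as its reverse complement) and the TATA box TATAAA.
Cyr61 promoter: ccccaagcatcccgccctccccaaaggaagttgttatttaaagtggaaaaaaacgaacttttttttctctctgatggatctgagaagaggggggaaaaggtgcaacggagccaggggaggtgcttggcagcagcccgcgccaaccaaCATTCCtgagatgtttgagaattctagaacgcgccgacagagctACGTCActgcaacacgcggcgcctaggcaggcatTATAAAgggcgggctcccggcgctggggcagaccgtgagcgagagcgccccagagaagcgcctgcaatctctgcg
The 3 motifs, which do not overlap, begin 103, 59 and 25 bases before the start. Searched on both strands, CATTCC occurred in 14.7%, TGACGT in 7.51% and TATAAA in 13.6% of the 32851 promoter windows of this length. The window holds 20 CpG dinucleotides, the letters that DNA methylation acts on, against a median of 7 over all windows. A match describes the letters only.

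Ctgf, the connective tissue growth factor gene (chromosome 10, 24315248 to 24318488, plus strand), was at 1096 RPKM in WT1, 951 in KO1, 151 in WT2 and 182 in KO2. Both replicate 1 libraries were far above both replicate 2 libraries, and the gene stood at rank 9 and 10 from the top in the former and at rank 144 and 98 in the latter. Nov, the nephroblastoma overexpressed gene (chromosome 15, 54577483 to 54585316, plus strand), showed the opposite order, with 7.87 RPKM in WT1, 8.09 in KO1, 173 in WT2 and 203 in KO2. For both genes the ranges of the genotypes overlapped.

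Wisp1 (chromosome 15, 66722955 to 66754761, plus strand, 12.1 Mb from Nov) was at 88.8 RPKM in WT1, 127 in KO1, 76.5 in WT2 and 111 in KO2. Wisp2 (chromosome 2, 163646570 to 163658883, plus strand) was at 17.6 RPKM in WT1, 40.7 in KO1, 19.03 in WT2 and 49.4 in KO2. For these 2 genes both KO libraries were above both WT libraries, and the libraries of a genotype were close to each other. The WT and KO means were 82.6 ± 8.70 and 119.2 ± 11.3 RPKM for Wisp1 and 18.3 ± 1.02 and 45.1 ± 6.16 RPKM for Wisp2 (SD, n = 2 each). The sixth mouse member, Wisp3 (Ccn6), is outside the 5 and was listed at 0 in WT1 and KO1, at 0.00399 RPKM in WT2 and at 0.0104 RPKM in KO2.

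**Figure D1:**
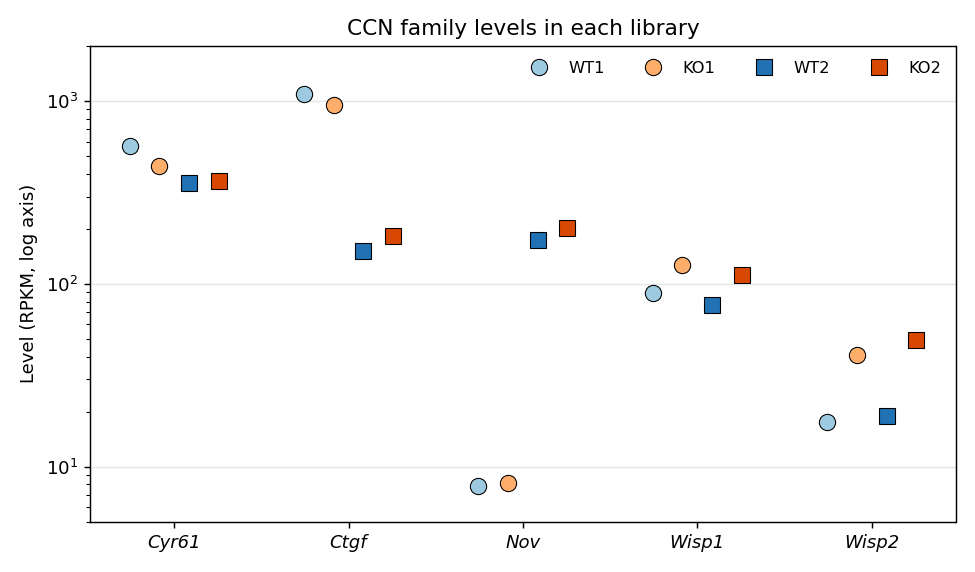
Level of each CCN gene in RPKM on a log axis, 1 point per library, with circles for replicate 1 and squares for replicate 2. Ctgf and Nov separate by replicate number in opposite directions, whereas the KO points of Wisp1 (127 and 111) and Wisp2 (40.7 and 49.4) lie above their WT points.

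The order of levels therefore depended on the replicate number and not on the genotype. In WT1 and KO1 it ran Ctgf, Cyr61, Wisp1, Wisp2, Nov from high to low. In WT2 and KO2 it ran Cyr61, Nov, Ctgf, Wisp1, Wisp2, where the ranges of Nov (173 and 203 RPKM) and Ctgf (151 and 182 RPKM) overlapped. Summed over the 5 genes the level was 1777 RPKM in WT1, 1567 in KO1, 776 in WT2 and 909.7 in KO2. Ctgf made up 61.7% and 60.7% of this sum in WT1 and KO1 but 19.5% and 20.0% in WT2 and KO2. The share of Nov went from 0.443% and 0.516% to 22.3% and 22.3%. Wisp2 was the smallest or next to smallest part throughout, with 0.990% in WT1, 2.60% in KO1, 2.45% in WT2 and 5.43% in KO2.

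**Figure D2:**
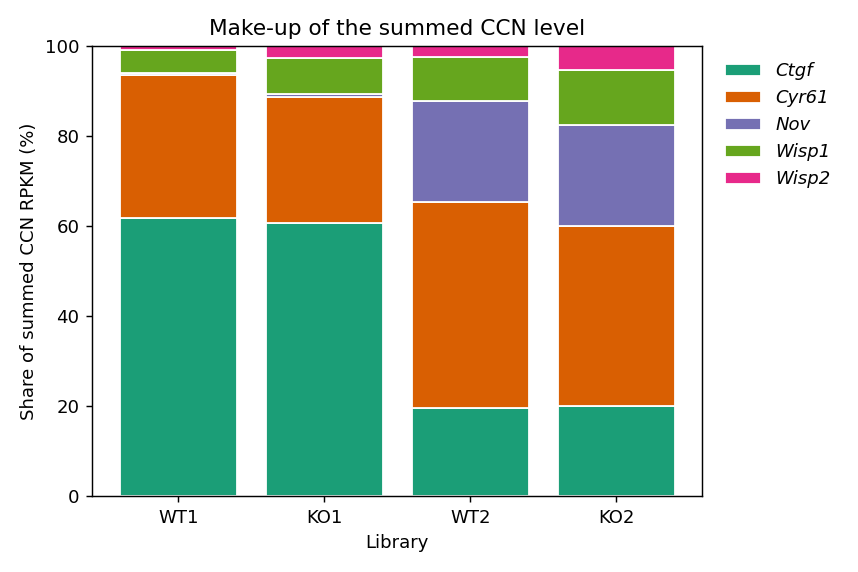
Share of the summed CCN RPKM taken by each member (stacked bars, percent) in each library. The Ctgf share falls from about 61.7% in WT1 to 19.5% in WT2 while the Nov share grows from 0.443% to 22.3%. Within a number the Ctgf and Nov shares of the 2 genotypes are alike, and the Wisp1 and Wisp2 shares are larger in KO.

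The difference between the replicate numbers did not choose these genes, and it was tested with limma on log2(RPKM + 0.5) with genotype and number as terms. All 5 genes were among the 11149 that passed the filter of 0.5 RPKM in 2 libraries. Of all genes tested 47.7% were called, 35.8% higher and 11.9% lower in replicate 2. The median gene was higher by 0.25, and median-ratio scaling, which removes that shift, gave 2564 higher and 2378 lower calls in place of 3992 and 1331. Of the 5 members 1 (Nov) was called higher and 2 (Ctgf and Cyr61) were called lower, so 3 calls among 5 are read against a background in which nearly as large a share was called. Nov was higher in both replicate 2 libraries than in both replicate 1 libraries (53.3% of genes tested were), and Ctgf and Cyr61 were lower in both (21.2%). Nov differed by 4.47 (SE 0.17, adjusted p 4.17e-08), which is 22.0-fold between WT1 and WT2 and 25.1-fold between KO1 and KO2, and only 11 tested genes had a larger rise. Ctgf differed by -2.62 (SE 0.16, adjusted p 8.11e-07), being 7.25-fold higher in WT1 than in WT2 and 5.23-fold higher in KO1 than in KO2. Smooth muscle markers, given further on, were lower in the same 2 libraries as Ctgf, and their part in the result was not tested. Nov and Ctgf kept direction and call under every alternative tried, each library left out included. Cyr61 was lower by a smaller amount (-0.47, SE 0.15, adjusted p 0.0249 in limma), and that call ended with no filter (0.0836), with quantile normalization (0.286), without the genotype term (0.0751) and with any of WT1, WT2 or KO2 left out (0.334, 0.273 and 0.228).

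Wisp1 and Wisp2 were not called between the numbers. Wisp1 differed by -0.20 (SE 0.16, limma adjusted p 0.313) and was called lower with median-ratio scaling (-0.49, adjusted p 0.0216). Wisp2 differed by 0.19 (SE 0.17, limma adjusted p 0.360), with an opposite sign under median-ratio scaling (-0.09). By the size of this difference, Nov and Ctgf stood at one end of the family and Wisp1 and Wisp2 at the other.

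**Figure D3:**
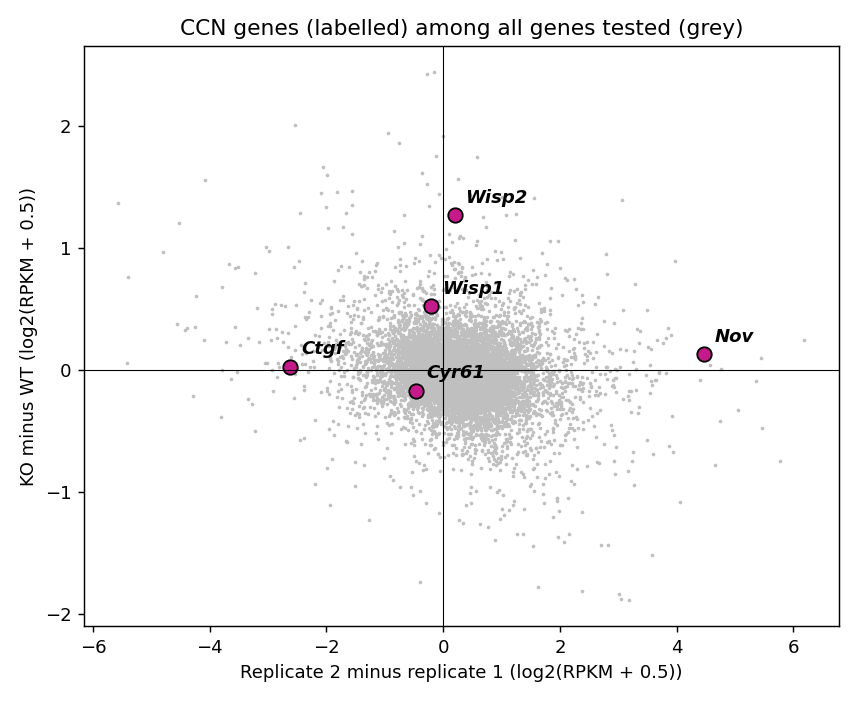
Each tested gene (grey) by its replicate 2 minus replicate 1 difference (x axis) and its KO minus WT difference (y axis), both on log2(RPKM + 0.5), with the CCN genes labelled. Nov (4.47) and Ctgf (-2.62) lie far out along x and near 0 along y, and Wisp2 (1.27) lies near 0 along x and high along y.

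Setting KO against WT addresses which transcripts change when Lsh is missing. With genotype as the only term limma called 0% of the 11149 genes (0 genes, 41 with an unadjusted p below 0.05), and 0 of the 5 CCN genes. Once the number was added to the fit 75 genes were called (0.673%), 42 of them higher in KO (0.377%). Wisp2 was the 1 CCN gene among them, and since that call is what brought the family forward nothing is read from it. The other 4 missed the threshold in both fits. In the planned fit the SE of a change draws on how far apart the 2 libraries of each genotype lie. In the second fit it draws on the disagreement of the 2 within-number differences. Both are moved by limma toward the spread of other genes of similar level. In the second fit that pull dominates, with 9.68 prior degrees of freedom against 1 residual. Its SE was 0.157 for Wisp1 and 0.156 for Ctgf, although their within-number differences lay 0.022 and 0.47 apart.

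Wisp2 was 2.31-fold higher in KO1 than in WT1 and 2.60-fold higher in KO2 than in WT2 (log2 change 1.27, SE 0.23, and SE 0.17 with the number as a term). Wisp1 was 1.43-fold higher in KO1 than in WT1 and 1.45-fold higher in KO2 than in WT2, so its 2 within-number differences, 0.52 and 0.54 on the log2 scale, lay closer together than those of the other 4 members. Its log2 change was 0.53 (SE 0.24, and SE 0.16 with the number as a term). Both KO libraries were above both WT libraries for Wisp1 (6.1% of all genes tested). The same held for Wisp2, but its difference brought the family forward, so it is not set against that share. Of the 5 genes 0 had both KO libraries below both WT libraries (7.32% of genes did). Sums of markers of some other cell types differed between genotypes within each number. The epithelial ones summed to 18.6 (WT1), 7.90 (KO1), 18.1 (WT2) and 5.76 RPKM (KO2). The largest part of that sum was Krt19, at 13.4, 3.56, 9.78 and 2.70 RPKM in the same order. Of the 4 epithelial markers tested 3 were lower in KO within both numbers (31.4% of all genes tested were). Krt18 was not, at 1.81 (WT1), 1.97 (KO1), 2.58 (WT2) and 0.939 RPKM (KO2). The blood and macrophage markers summed to 60.3, 8.37, 175 and 84.6 RPKM in the same order, so KO2 lay above WT1. They differed by number as well, with 9 of the 10 tested called higher in replicate 2 (35.8% of all genes tested). Their part in the values of Wisp1 and Wisp2 was not tested.

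Nov, Ctgf and Cyr61 had small KO minus WT differences. Nov was 1.03-fold and 1.17-fold higher in KO within numbers 1 and 2 (log2 change 0.13, SE 0.17 with the number as a term). For Ctgf the ratio of KO to WT was 0.868 in number 1 and 1.20 in number 2 (log2 change 0.03, SE 0.16 in the same fit). For Cyr61 it was 0.776 and 1.02 (log2 change -0.17, SE 0.15). Ctgf and Cyr61 thus lay on opposite sides of 1 in the 2 numbers, and with the genotype as the only term the SE was 1.29 for Ctgf and 2.16 for Nov because the difference between the numbers enters it. Apart from Wisp2, whose difference brought the family forward, Wisp1 and Nov were higher in KO within both numbers (22.5% of all genes tested were).

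The genes around Wisp2 did not share its KO minus WT difference in size. Ada, an adenosine deaminase gene whose end lies 70.7 kb before Wisp2, was at 1.27 (WT1), 1.24 (KO1), 0.704 (WT2) and 0.872 RPKM (KO2). Pkig, a protein kinase A inhibitor gene farther on that side, was at 13.7 (WT1), 13.8 (KO1), 24.5 (WT2) and 24.7 RPKM (KO2). On the other side Ywhab, a 14-3-3 protein gene 162 kb away, was at 129.6 (WT1), 114 (KO1), 105 (WT2) and 107 RPKM (KO2). Rims4, a synaptic gene 30.7 kb after Wisp2, was listed at 0 in both WT libraries, at 0.0393 RPKM in KO1 and at 0.0441 RPKM in KO2. These neighbours were taken by position, the 2 nearest genes on each side among the rows of the files.

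The genes whose profile over the 4 libraries was closest to that of Wisp2, by the root mean square distance of centred log2(RPKM + 0.5) values, were Apol9a (0.12), Gria4 (0.12), Gbp1 (0.12), Pcdhb15 (0.16) and Slc47a1 (0.17). All 5 were at much lower levels than Wisp2, where the added 0.5 shrinks differences, so the likeness in size depends on it. Gbp1, an interferon-induced guanylate-binding protein gene, was at 0.743 (WT1), 2.29 (KO1), 1.08 (WT2) and 2.73 RPKM (KO2). Slc47a1, a multidrug and toxin extrusion transporter gene, was at 0.0201 RPKM in WT1, 0.936 in KO1 and 0.842 in KO2, and was listed at 0 in WT2. Pcdhb15 is a clustered protocadherin gene and Gria4 encodes a glutamate receptor subunit. With 4 libraries such likeness is a description only.

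Wisp1 had its closest profiles in Moxd1 (0.033), Chd9 (0.042) and Lama2 (0.048). Moxd1, a monooxygenase gene, is also the nearest gene before Ctgf on chromosome 10, and was at 3.88 (WT1), 5.42 (KO1), 3.26 (WT2) and 4.78 RPKM (KO2). Lama2 encodes a laminin chain. Cyr61 was matched most closely by Galnt3 (0.013), Prepl (0.015) and Rexo2 (0.025).

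The closest profiles to Ctgf were those of Grem1 (0.064), Nppb (0.11) and Ttc9 (0.13). Grem1, a secreted inhibitor of bone morphogenetic proteins, was at 56.7 (WT1), 50.6 (KO1), 8.39 (WT2) and 9.75 RPKM (KO2). Nppb, a natriuretic peptide gene, was at 4.36 (WT1), 4.05 (KO1), 0.138 (WT2) and 0.207 RPKM (KO2). Nov was less closely matched, by Clec11a (0.32), Islr (0.33) and Lgr5 (0.34). Lgr5, a receptor for R-spondins and a Wnt target, was at 0.0851 (WT1), 0.270 (KO1), 8.25 (WT2) and 10.2 RPKM (KO2). Islr, a secreted protein gene of mesenchymal cells, went from 0.375 and 0.820 to 29.8 and 20.9 RPKM.

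**Figure D4:**
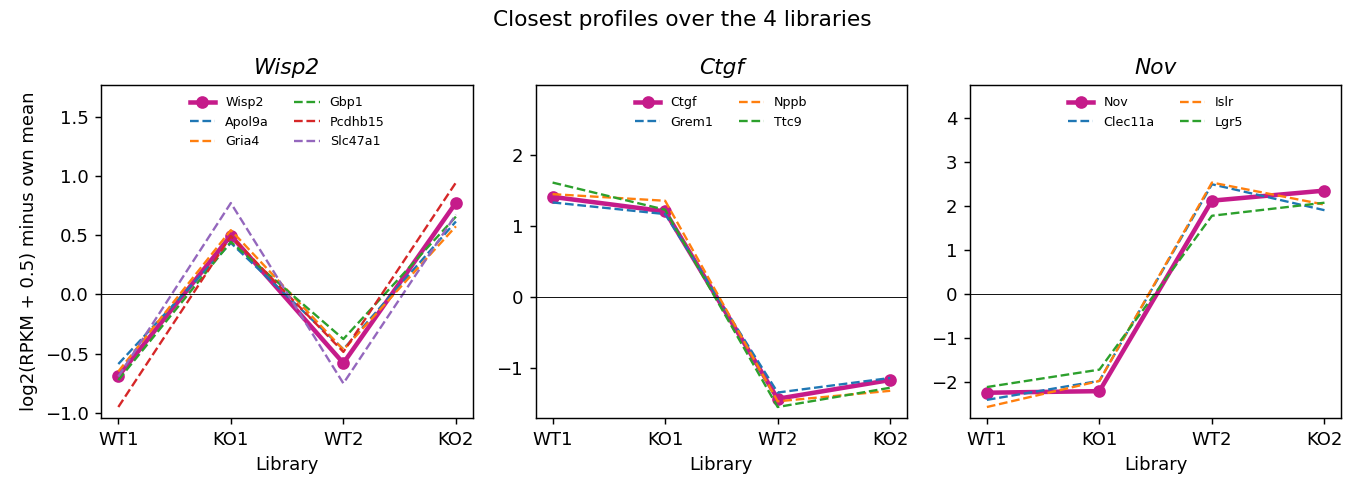
Centred log2(RPKM + 0.5) profiles of Wisp2, Ctgf and Nov (solid) over the 4 libraries with the genes closest to each (dashed), where lines only join the points of a gene. The Wisp2 panel alternates with genotype, and the Ctgf and Nov panels step between the replicate numbers.

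The counts of the gene lists that follow are read against all genes tested, of which 0% (genotype only) or 0.673% (number as a term) were called in KO against WT and 35.8% were called higher and 11.9% lower in replicate 2. With so few calls between genotypes, 0 calls in a list says little about it. Of 14 tested CCN receptors and co-receptors, mainly integrins and syndecans, 0 were called in KO against WT in either fit, and 7 were lower and 2 higher in replicate 2. Itga5, the fibronectin receptor subunit, was at 175 (WT1), 146 (KO1), 28.5 (WT2) and 24.8 RPKM (KO2) (log2 difference -2.56, limma adjusted p 1.09e-06). Itgb1, the shared beta subunit, and Sdc4, a heparan sulfate proteoglycan, were lower in replicate 2 as well (-1.004 and -1.05). The call of Itgb1 ended with WT2 left out (adjusted p 0.0503). The median of the list was -0.65 between the numbers, against 0.25 for all genes tested, and 0.03 in KO minus WT, against -0.02.

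Components of the Hippo pathway and the targets of its effectors were described next. Of 16 tested core genes 0 were called in KO against WT, and 4 were higher and 4 lower in replicate 2. With median-ratio scaling these became 1 and 8. Yap1 was at 51.8 (WT1), 47.2 (KO1), 48.04 (WT2) and 51.4 RPKM (KO2). Wwtr1, which encodes TAZ, was at 30.3 (WT1), 35.9 (KO1), 28.99 (WT2) and 38.3 RPKM (KO2), with a log2 change of 0.32 in KO (limma adjusted p 0.644 with the number as a term). Tead1, a DNA-binding partner of YAP and TAZ, was at 36.8 (WT1), 38.2 (KO1), 29.8 (WT2) and 33.1 RPKM (KO2). Of 20 YAP/TAZ targets other than the CCN genes, 0 were called in KO against WT, and 10 were lower and 2 higher in replicate 2. The lower ones include F3, the tissue factor gene, which was at 177 (WT1), 162 (KO1), 44.3 (WT2) and 47.3 RPKM (KO2) (log2 difference -1.88, limma adjusted p 9.32e-06). Amotl2, a target that restrains YAP in turn, was at 99.5 (WT1), 134 (KO1), 67.8 (WT2) and 69.8 RPKM (KO2) (-0.74, adjusted p 0.00447), a call that ended without WT2 (0.107), KO1 (0.0609) or KO2 (0.0817). Ankrd1, a standard reporter of YAP activity named here after its values were seen, was at 67.0 (WT1), 47.8 (KO1), 8.20 (WT2) and 12.5 RPKM (KO2) (-2.42, adjusted p 0.000334). Igfbp3 went the other way, from 19.5 and 23.1 to 311 and 255 RPKM (3.70, adjusted p 2.43e-07). The list's median was -0.37 between the numbers and -0.02 in KO minus WT, and the latter was above 0 with median-ratio scaling (0.01) and quantile normalization (0.03).

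Genes of the Wnt pathway, to which the name of the Wisp genes refers, showed 0 calls in KO against WT among 12 tested targets and 0 among 28 tested ligands, receptors and transducers. Between the numbers 5 targets were higher and 3 lower in replicate 2, and of the ligands, receptors and transducers 15 were higher and 3 lower (11 and 5 with median-ratio scaling). The medians in KO minus WT were 0.07 and -0.11. Among the targets the highest were Ccnd1, the cyclin D1 gene, at 112 (WT1), 125 (KO1), 62.4 (WT2) and 56.8 RPKM (KO2), the growth regulator Myc, at 53.4 (WT1), 44.7 (KO1), 28.3 (WT2) and 27.5 RPKM (KO2), and the transcription factor gene Sox4, at 30.9 (WT1), 35.6 (KO1), 35.6 (WT2) and 40.9 RPKM (KO2). Ctnnb1, which encodes beta-catenin, was at 120.2 (WT1), 109 (KO1), 160.3 (WT2) and 185 RPKM (KO2). The Wnt receptor genes Fzd2 and Fzd7 were at 17.3 to 83.2 and at 24.3 to 37.2 RPKM. In the TGF-beta list 0 of 18 tested genes were called in KO against WT, and 6 were higher and 5 lower in replicate 2, which became 4 and 7 with median-ratio scaling. Tgfb3, a TGF-beta ligand gene, was at 97.9 (WT1), 39.1 (KO1), 94.7 (WT2) and 81.4 RPKM (KO2), and Tgif1, a repressor of the pathway, was at 66.4 (WT1), 76.1 (KO1), 36.0 (WT2) and 35.5 RPKM (KO2).

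Other matricellular proteins, which like the CCN proteins signal from the matrix, were called higher in replicate 2 in 10 of 15 tested and lower in 3 (35.8% and 11.9% of all genes tested). Sparc, a collagen-binding protein gene, was at 1121 (WT1), 1238 (KO1), 1497 (WT2) and 1634 RPKM (KO2), and Spp1, the osteopontin gene, was at 562 (WT1), 269 (KO1), 304 (WT2) and 375 RPKM (KO2). Thbs1, the thrombospondin gene that activates latent TGF-beta, was lower, with 1069 (WT1), 1339 (KO1), 383 (WT2) and 524 RPKM (KO2) (-1.42, limma adjusted p 1.55e-05). In KO against WT 1 gene of this list fell with the number as a term. That was Smoc1, a calcium-binding matrix protein of the SPARC family, from 8.37 to 4.59 RPKM in number 1 and from 5.39 to 2.23 in number 2 (log2 change -0.95, SE 0.18, limma adjusted p 0.0365). Its call ended with a pseudocount of 0.1 (adjusted p 0.0764) or 1 (0.0534), with no filter (0.481), with the highest transcript per gene (0.192) and with genotype as the only term (1.00).

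Genes that share the IGFBP domain with the CCN family showed 0 calls in KO against WT among 11 tested, and 7 were higher and 3 lower in replicate 2. Igfbp7, a binding protein once grouped with the CCN genes by sequence, was at 240.4 (WT1), 397 (KO1), 93.7 (WT2) and 148 RPKM (KO2). Its log2 change in KO was 0.69 (SE 0.15, limma adjusted p 0.0795 with the number as a term), and median-ratio scaling took it past the threshold (adjusted p 0.0427). Igfbp4, a carrier that withholds IGF, was at 25.5 (WT1), 15.1 (KO1), 379 (WT2) and 252 RPKM (KO2), a change of -0.66 in KO (adjusted p 0.117) and of 3.94 between the numbers (adjusted p 8.38e-08).

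Serum and SRF responsive genes, the class of fast responders to which Cyr61 belongs, gave 0 calls in KO against WT among 20 tested, with a median of -0.17 and 11 lower in KO within both numbers (31.4% of all genes tested were). Between the numbers 7 were higher and 7 lower. Egr1, an immediate early transcription factor, was at 55.1 (WT1), 34.0 (KO1), 359 (WT2) and 295 RPKM (KO2) (2.90, limma adjusted p 6.97e-07). Myl9, a contractile light chain, was lower in replicate 2 (-1.10, adjusted p 0.000186). Cnn2, a calponin gene, was at 336 (WT1), 288 (KO1), 289 (WT2) and 243 RPKM (KO2). Ctgf and Cyr61 were thus lower in the libraries in which Egr1 was higher.

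Genes of adipocyte precursors and adipogenesis, the setting in which Wisp2 is best known, were higher in replicate 2 in 9 of 12 tested, with 0 lower (35.8% and 11.9% of all genes tested) and a median of 2.13 (0.25 for all genes tested). In KO against WT 1 gene fell with the number as a term: Dlk1, a secreted inhibitor of adipogenesis, was at 7.10 (WT1), 3.29 (KO1), 132 (WT2) and 59.0 RPKM (KO2) (log2 change -1.08, SE 0.16, limma adjusted p 0.0141). The call ended with no filter (adjusted p 0.434), with the highest transcript per gene (0.105) and with genotype as the only term (1.00). The list's median in KO minus WT was 0.06, and Cebpb, a transcription factor that starts adipogenesis, was at 30.4 (WT1), 50.9 (KO1), 56.3 (WT2) and 47.9 RPKM (KO2). Klf4, another such factor, was at 20.09 (WT1), 20.09 (KO1), 33.2 (WT2) and 35.9 RPKM (KO2).

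**Figure D5:**
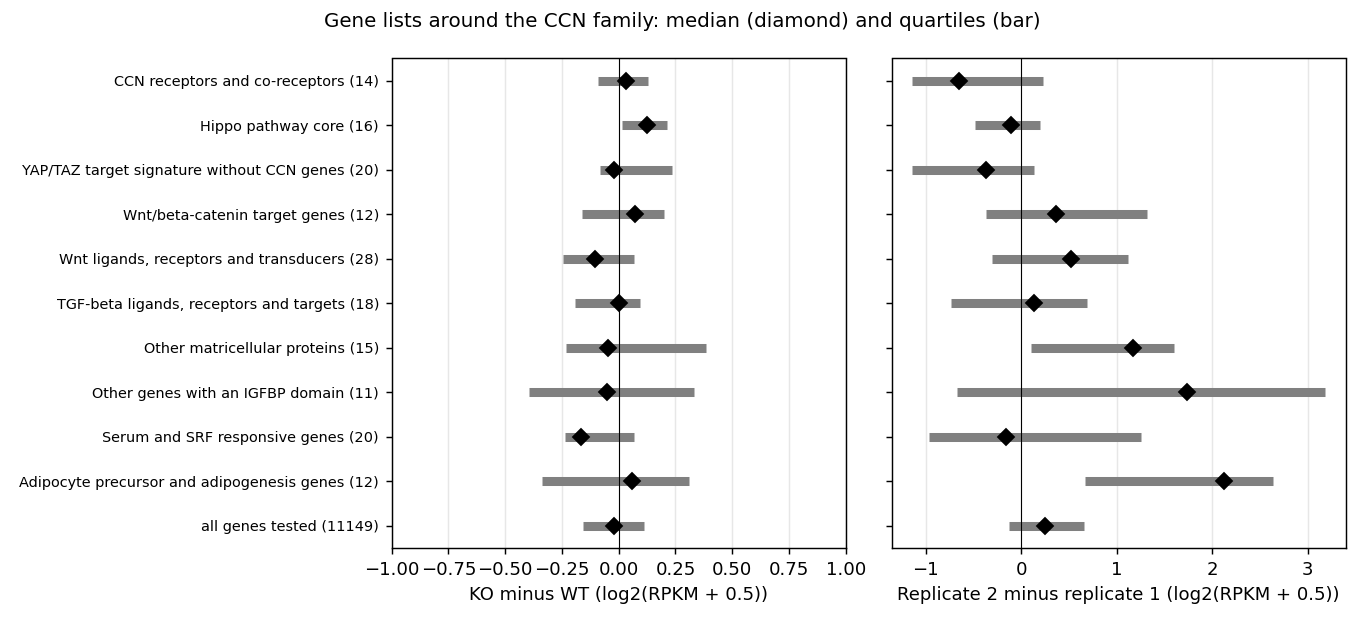
Median (diamond) and quartiles (bar) of the log2 difference over the tested members of each list, with the number tested in brackets, for KO minus WT (left) and replicate 2 minus replicate 1 (right; the axes differ in scale). The KO minus WT medians lie between -0.17 and 0.12, whereas those between the numbers run from -0.65 to 2.13.

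Markers of cell types were followed beside these results. The 10 fibroblast markers summed to 2605 to 3098 RPKM in WT and 2787 to 3010 RPKM in KO, and none was at 0. Gene by gene they were not steady between the numbers, with 7 called higher and 2 lower in replicate 2 (35.8% and 11.9% of all genes tested). Lum, named here after its values were seen, was at 0.718 (WT1), 1.27 (KO1), 108 (WT2) and 105 RPKM (KO2). Vim, the highest of the list, was at 1307 (WT1), 1198 (KO1), 879 (WT2) and 782 RPKM (KO2). Smooth muscle markers, which stress-fibre-rich fibroblasts also express, moved with Ctgf: their 8 genes summed to 2077 and 1581 RPKM in WT1 and KO1 and to 838 and 727 RPKM in WT2 and KO2, and 5 were lower in replicate 2. Tagln, an actin-binding protein of contractile cells, was at 1099 (WT1), 872 (KO1), 414 (WT2) and 341 RPKM (KO2) (-1.38, limma adjusted p 1.95e-05). Blood and macrophage markers (12 genes) summed to 60.3 and 175 RPKM in WT1 and WT2 and to 8.37 and 84.6 in KO1 and KO2, with 10 of the 10 tested lower in KO within both numbers (31.4% of all genes tested) and 4 called lower with the number as a term (0.296% of all). These were the macrophage genes C1qc, Laptm5, Fcer1g and Cd14, with log2 changes of -1.83, -1.37, -1.43 and -1.34 (limma adjusted p 0.0365, 0.00782, 0.0172 and 0.0288). Of the 10 tested 9 were also called higher in replicate 2 (35.8% of all genes tested). C1qc was at 4.20 (WT1), 0.403 (KO1), 25.5 (WT2) and 10.2 RPKM (KO2). Epithelial markers (8 genes) summed to 18.6 and 18.1 RPKM in WT and to 7.90 and 5.76 in KO, with 3 of 4 tested lower in KO within both numbers and 2 called. The keratin gene Krt19 was at 13.4 (WT1), 3.56 (KO1), 9.78 (WT2) and 2.70 RPKM (KO2) (log2 change -1.73, limma adjusted p 0.00188 with the number as a term), and Krt7 was at 0.968 (WT1), 0.129 (KO1), 2.56 (WT2) and 1.12 RPKM (KO2) (-1.07, adjusted p 0.0228). Chondrocyte and osteoblast markers (13 genes) summed to 23.1 to 34.1 RPKM in WT and 22.04 to 27.2 in KO, and 1 of 6 tested was called lower. That was Col2a1, a cartilage collagen gene, at 3.92 (WT1), 0.714 (KO1), 5.42 (WT2) and 2.63 RPKM (KO2) (-1.39, adjusted p 0.0439). All 7 of these marker calls ended with no filter, with the highest transcript per gene and with genotype as the only term, and those other than Krt19 also with a pseudocount of 0.1. Adipocyte markers stayed at 1.03 RPKM or less in sum, with Adipoq and Plin1 among the 6 at 0 in some library, and endothelial markers at 2.96 or less. Neuronal markers summed to 12.9 and 1.94 RPKM in WT and to 5.01 and 2.28 in KO. Of these sums Stmn2 alone was 12.7 (WT1), 0.973 (WT2), 4.70 (KO1) and 1.22 RPKM (KO2). The other 6 neuronal markers present were under 0.5 RPKM in every library. The part of these cell types in the CCN values was not tested.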

How the data were processed

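RNA was measured in 4 of the 22 samples. The authors deposited RPKM values for each RefSeq transcript, which name build mm9 and Partek per the submitters' processing notes and Cufflinks per the deposited readme. How multi-mapping reads were treated is not given in the sources used here. Per the labels, total RNA was treated with DNase and RiboMinus and selected for poly-A. Rows were summed per symbol. Depth was read from olfactory receptor loci with a single exon, where RPKM times length comes in whole reads (tolerance 0.02; at least 96% of 18 to 37 loci per library). The 11149 genes with at least 0.5 RPKM in 2 libraries were tested with limma 3.58.1 (trend, robust) in R 4.3.3 on log2(RPKM + 0.5), a scale that understates changes of low genes. P-values were two-sided and adjusted over all genes tested (Benjamini-Hochberg), with a threshold of 0.05. The planned KO against WT fit had genotype as its only term. P-values rest on the spread between these libraries, which may be technical, moved by limma toward that of other genes. An exact permutation of 2 against 2 cannot go below 0.333. Fits were run on simulated data with known changes and noise drawn independently for each library. The only condition set was that the median estimate lay near the planted change. Gene names came from the files, and 95.3% of rows matched the RefSeq table. Named list genes were the 3 highest of a list (marker lists are given mainly as sums) and those called in KO against WT with the number as a term. The 5 nearest profiles were named for Wisp2 and the 3 nearest for the others. The members and lists were chosen with earlier results of these data known. Alternatives were other pseudocounts, filters, scalings, transcript choices, terms and each library left out. One gene of the TGF-beta list is not reported here by name.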

Additional observations from a re-analysis of the deposited data

Results flagged for a closer look

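For 2 of the 5 CCN genes the KO minus WT difference had opposite signs in the replicate numbers. Such a split was common: of all genes tested 22.5% rose in KO in each number and 31.4% fell in each. The remaining genes did not keep the same direction, so 2 of 5 is not read as a feature of the family. Ctgf was lower in KO in number 1 (log2 difference -0.20) and higher in number 2 (0.27), a gap of 0.47. Cyr61 was lower in number 1 (-0.37) and about level in number 2 (0.03), a gap of 0.40. With 1 library per genotype and number, whether the differences themselves differ was not tested.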

How the results depend on the processing

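With genotype as the only term 0 genes were called in KO against WT under each alternative without the replicate block, each library left out included (0 to 0). The replicate block called 75 genes, and 37 with a pseudocount of 0.1, 59 with a pseudocount of 1, 70 with a filter of 1 RPKM, 3 with the highest transcript per gene, 105 with median-ratio scaling, 187 with quantile normalization and 0 with no filter (1269 with an unadjusted p below 0.05). The block was used beside the planned fit because the files differ by number. The deviations of same-numbered libraries had a correlation of 0.875 across genes, although no label ties a WT to a KO library of equal number. Wisp2, Dlk1 and Krt19 stayed past the threshold in 5 of the 7 alternatives with the block. Their calls ended with no filter and with the highest transcript per gene. Krt7, Col2a1, Laptm5, Fcer1g and Cd14 stayed in 4, and Smoc1 and C1qc in 3 (C1qc ended with median-ratio scaling too). Since the Wisp2 call brought the family forward, nothing is read from how it held. Fits that leave out 1 library take in the difference between the numbers, and assume that the lone library of a genotype varies like the other pair. They gave KO minus WT changes of -1.40 to 1.46 for Ctgf, -0.50 to 0.17 for Cyr61 and -2.15 to 2.42 for Nov. The changes were -3.15 to 0.98 for Dlk1, -2.67 to 1.34 for Igfbp4 and -0.020 to 1.40 for Igfbp7. They were -0.35 to 1.13 for Thbs1, -2.97 to 0.11 for Fcer1g and 0.42 to 0.63 for Wisp1. For Wisp2 they were 1.13 to 1.41, given as a description only. Between the numbers 5323 genes were called, and 1640 to 4447 with 1 library left out and the number as the only term (1640 without WT2 and 2264 without KO2). The difference ran from -0.47 to 0.066 for Wisp1 and from -0.48 to 0.87 for Wisp2 in such fits. For Wisp2 it was -0.087 with median-ratio scaling, which shifts the median gene by 0.25. The cause was not tested.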

Other observations

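The genes next to the other CCN members, taken by position, had the following levels. Enpp1, an ectonucleotidase gene 42.7 kb after Ctgf, was at 3.30 (WT1), 1.86 (KO1), 1.84 (WT2) and 1.85 RPKM (KO2). Ddah1, an enzyme gene of nitric oxide control 109 kb from Cyr61, was at 66.5 (WT1), 53.1 (KO1), 30.3 (WT2) and 26.4 RPKM (KO2), so it was higher in the same libraries as Ctgf. Enpp2, which encodes autotaxin and lies 85.1 kb after Nov, was at 1.009 (WT1), 0.189 (KO1), 2.58 (WT2) and 2.24 RPKM (KO2). Mal2, on the other side of Nov, was at 0.0982 RPKM or less in every library. Ndrg1, a stress-responsive gene 6.12 kb after Wisp1, was at 11.6 (WT1), 17.7 (KO1), 11.3 (WT2) and 12.2 RPKM (KO2).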
